A study of Triticum aestivum with 58 samples.

Results

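The genes at the end of chromosome 1D are the 257 genes numbered from TraesCS1D02G428400 to TraesCS1D02G454700 in the deposited count tables, of 4484 chromosome 1D genes and 120744 genes in all. They were chosen by this range of identifiers because earlier results of these data had shown low expression there in part of the libraries, so differences between low and other libraries are given as a description and are not tested. The range is described in 2 stretches, the 82 genes from TraesCS1D02G428400 to TraesCS1D02G436700, where most assessed genes were alike in low and other libraries, and the low segment from TraesCS1D02G436800 to TraesCS1D02G454700 (175 genes).

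Bread wheat is a hexaploid with the A, B and D genomes, so that most genes have a homoeologous copy on each, and 1A, 1B and 1D are the homoeologous chromosomes of group 1. Each identifier names its chromosome, and the numbers run along it, so that the last numbers lie at its end. The ends of wheat chromosomes are gene-rich and are known to differ between cultivars by lost or introgressed pieces, which is background and was not tested here. The files used here pair the members with no gene names, functions, sequences or coordinates, and none is given.

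The libraries came from seedlings of spring wheat cultivars sown in trays of peat moss, with no treatment of these plants named in the paper. Leaf and root tissues were taken at the early seedling stage. Root was sampled for 28 cultivars (81 libraries) and leaf for 30 cultivars (82 libraries), of which 28 have both tissues and Hope and TJ-83 have leaf only. Each library was made from total RNA by the oligo (dT) method and read as single ends, and the numbered libraries of a cultivar are called replicates. Between 8111979 and 11212584 reads per library were counted on genes (median 9428070), so that 3 counts, the limit that a count of 0 allows, equal 0.268 to 0.370 CPM (counts scaled to a total of 1000000 reads per library), which covers counting error only.

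The tissue of the libraries was checked on marker genes. The summed level of 15 root genes (the RTH3, EXPB1, COW1, TaRSL4 and TaMOR homoeologues) was between 18.3 and 473.5 CPM in root, with a median of 163.3 CPM, and between 0.222 and 156.8 CPM in leaf, with a median of 27.1 CPM. In leaf, 6 of the 15 root genes had reads, and the RTH3 homoeologues held nearly all of them, with median levels of 6.27 to 11.1 CPM, while the COW1 and TaMOR homoeologues had no read. The 3 PpD photoperiod genes summed to between 22.9 and 237.9 CPM in leaf and to between 0 and 4.47 CPM in root. Within root, the root genes had a median sum of 203.7 CPM in the low libraries (18.3 to 461.8 CPM) and of 138.1 CPM in the others (46.6 to 473.5 CPM). In leaf the PpD genes had a median sum of 97.4 CPM in the low (22.9 to 220.9 CPM) and of 112.4 CPM in the other libraries (59.4 to 237.9 CPM). These ranges overlapped, and their part in the results was not tested.

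Each gene was given a state in each library. The reference level of a gene was the upper quartile of its CPM over the libraries of the tissue, since in leaf the low libraries outnumber the others and the median lies at the low level. A gene was assessed where its reference was at least 2 CPM. It was called on at 50% or more of the reference, reduced from 10% to under 50%, and off under 10%. A library was called low where the median log2 ratio of its assessed members to the reference, with 0.1 CPM added to both, was under -1. Of the 257 members, 80 were assessed in both tissues, 26 in root alone, 15 in leaf alone and 136 not at all. No read was counted in any library for 38 members.

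In root, 38 of 81 libraries were low and 43 were not. In leaf, 42 of 82 were low and 40 were not. With the tissue median as the reference, 38 root libraries were low again, but 2 leaf libraries. Over the segment genes, the median log2 ratio of a library was between -3.87 and -2.75 in low root libraries and between -0.96 and 0.13 in the other root libraries. In leaf it was between -4.002 and -2.35 in low libraries and between -0.79 and 0.76 in the others. No library lay in the gap between these ranges in either tissue. The genes before the segment had medians of -0.30 in the low and -0.25 in the other root libraries, and of -0.49 and -0.47 in leaf.

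**Figure D1:**
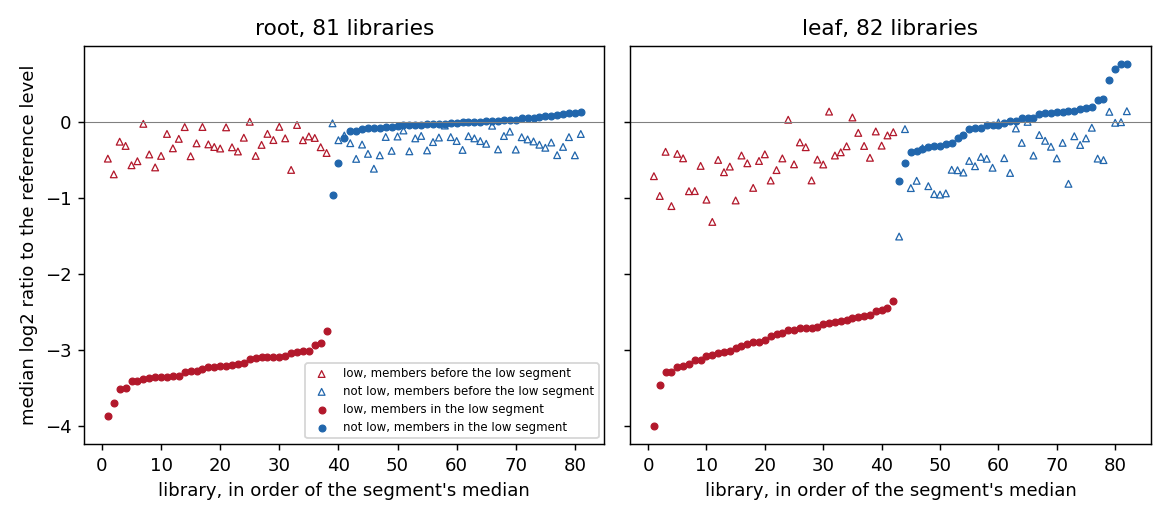
Median log2 ratio to the reference level in each library (1 point per library and set of genes), for the segment genes (filled circles) and the members before the segment (open triangles), in root and in leaf; red marks low libraries and blue the others. The filled red points lie at or under -2.75 in root and -2.35 in leaf, while the triangles of both colours overlap.

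Some names of the cultivars held both low and other libraries, and this was more frequent in leaf than in root. In root, 9 of 28 names had low libraries only, among them Barani, Gabo, Pari-73 and Ujala-2016, 11 had none, among them C-217, T-9 and Zincol-2016, and 8 names were split between low and other libraries. In leaf, of the 28 names with at least 2 libraries, 6 were low throughout, 5 had no low library and 17 were split. Dharabi-2011 was low in 3 of 3 root libraries and in 0 of 3 leaf libraries, and Punjab-96 was low in 0 of 3 root libraries and in 3 of 3 leaf libraries. Pairs of libraries with the same name had the same state in 62 of 78 pairs within root (79.5%), in 45 of 76 within leaf (59.2%) and in 119 of 221 between root and leaf (53.8%).

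The state was also compared between libraries that are alike in other genes, whatever their names. This used 234 genes outside chromosome 1D that were off in part of the libraries and on in others, with few libraries in between. On these genes, 62 root libraries had another root library with the same states at 97% or more of the genes. All 62 had the same 1D state as this best match. The same held for 66 of 66 such leaf libraries matched with leaf, and for 66 of 66 leaf libraries matched with root (35 low and 31 not low). Of these 66 leaf libraries, 5 had a best root match of their own name and 61 one of another name. In root, 39 of the 62 best matches had the same name and 23 another. The matches cover only libraries that reached 97%, and neither they nor the pairs of the same name were tested against chance. The leaf vs root test below, and its counts of cultivars, take the names of the libraries as given.

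Some libraries were neither low nor full. Replicate 1 of Parwaz-94 root had a segment median of -0.96 on the log2 scale, with 45 of 77 genes on, 32 reduced and 0 off, while replicates 2 and 3 of this name were low. Replicate 1 of Maxipak-65 root had -0.54 with 72 genes on and 5 reduced, and replicate 3 was low. In leaf, replicate 2 of Seher-2006 had -0.54 (57 of 64 genes on and 7 reduced). Replicate 2 of Dirk had -0.79 in leaf (43 genes on, 17 reduced and 4 off), but it was lower still before the segment, with -1.51 and 11 of 31 genes on, so that its low value was not particular to the segment.

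The summed level of the 175 segment genes was between 181.9 and 260.5 CPM in low root libraries (median 231.4) and between 969.9 and 2289 CPM in the others (median 1856). In leaf it was between 127.0 and 222.9 CPM in low libraries (median 167.5) and between 679.4 and 1860 CPM in the others (median 1167). The 82 genes before the segment summed to medians of 629.6 and 638.6 CPM in root and 646.1 and 647.7 CPM in leaf, low libraries first in each pair. The 2 groups of libraries were formed on the members, most of them segment genes, so their difference in the segment largely follows from that definition. Before the segment they overlapped.

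Over all assessed segment genes and libraries, 50.7% of the states in low root libraries were off, 44.6% reduced and 4.72% on, against 1.21%, 4.02% and 94.8% in the other root libraries. These root shares include TraesCS1D02G449300, whose reference level was set by the low libraries. It raises the off share of the other root libraries and the on share of the low ones. In low leaf libraries 44.0% were off, 47.2% reduced and 8.74% on, against 0.859%, 7.54% and 91.6% in the others. Before the segment 87.1% of the states were on in low and 86.1% in other root libraries, and 70.8% and 72.7% in leaf. Low libraries thus held both off and reduced genes. Their median level over the segment was 9.79% of the reference in root and 12.8% in leaf, close to the limit of 10% between these states. The shares alone therefore do not tell 1 common level from several, and the levels are given gene by gene below.

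**Figure D2:**
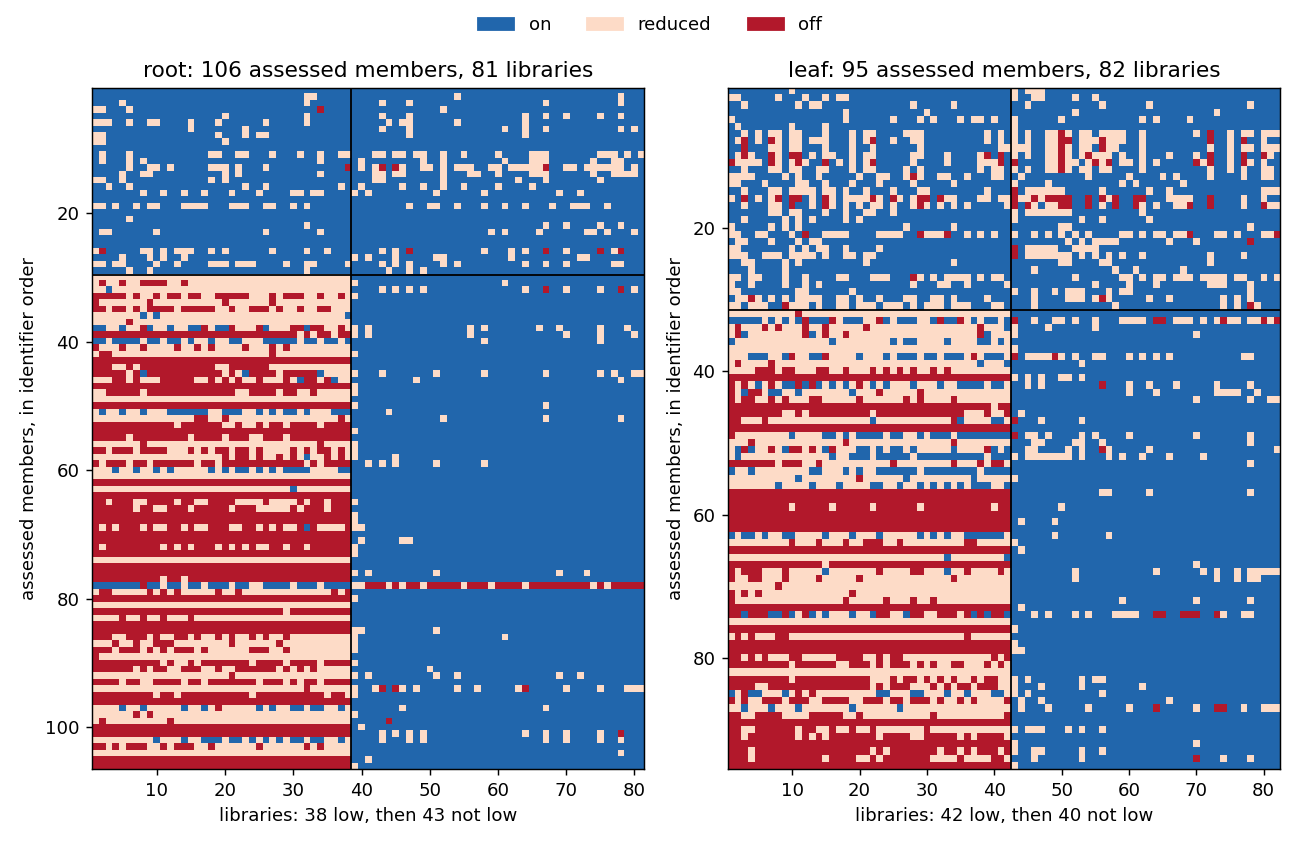
State of every assessed member (rows, in identifier order, with the low segment under the horizontal line) in every library (columns, low libraries left of the vertical line), in root and in leaf; blue is on, pale is reduced and red is off. Below the line the left blocks are mixed pale and red in horizontal stripes, so that many genes have 1 state in most low libraries while others change between pale and red. The right blocks are mostly blue, with more pale in intermediate libraries such as the first root column right of the line (32 of 77 segment genes reduced).

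Gene by gene, 77 of the 175 segment genes were assessed in root. In most of the 38 low libraries 40 of them were off, 32 reduced and 3 on, and 2 had no state in more than 50% of the libraries. Among the 3 on genes, TraesCS1D02G449300 had a reference level set by the low libraries themselves. In leaf, 64 were assessed, of which 26 were off, 31 reduced, 4 on and 3 without such a majority in the 42 low libraries. All 29 assessed genes before the segment were on in most low root libraries, and in leaf 26 of 31 were on, 1 was reduced and 4 had no majority. Groups that did not overlap, with the highest low library under the lowest other library, were seen for 59 of 77 segment genes in root and 34 of 64 in leaf, where the share over all assessed genes was 0.121% in root and 0.0845% in leaf. All 59 and 34 such genes lay in the segment, and no gene of 48899 in root or 40248 in leaf was higher in every low library than in every other one. These counts, and the position and direction of the genes, rest on the same contrast that chose the members and formed the groups. They are given as a description, and nothing is read from them.

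The level left in the low libraries, as the ratio of median CPM in low and other libraries, had a median of 9.27% over the assessed segment genes in root and of 13.99% in leaf. Genes before the segment had medians of 97.9% in root and 99.7% in leaf. In root the off genes kept between 0% and 9.91% (median 2.95%) and the reduced genes between 10.8% and 49.1% (median 20.2%). The off genes had a median length of 1780 bp and the reduced genes of 2333.5 bp in root, and in leaf the order was the other way round, with 2129.5 bp for the off and 1867 bp for the reduced genes. Off genes lay in both parts of the segment, with 19 of the first 38 assessed root genes and 21 of the last 39. In leaf they were 10 of the first 32 and 16 of the last 32. The first off gene was TraesCS1D02G437200 in root, with 9.28% left, and TraesCS1D02G440100 in leaf. None of the 9 leaf genes assessed from TraesCS1D02G436800 up to the gene before TraesCS1D02G440100 was off in most low libraries.

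**Figure D3:**
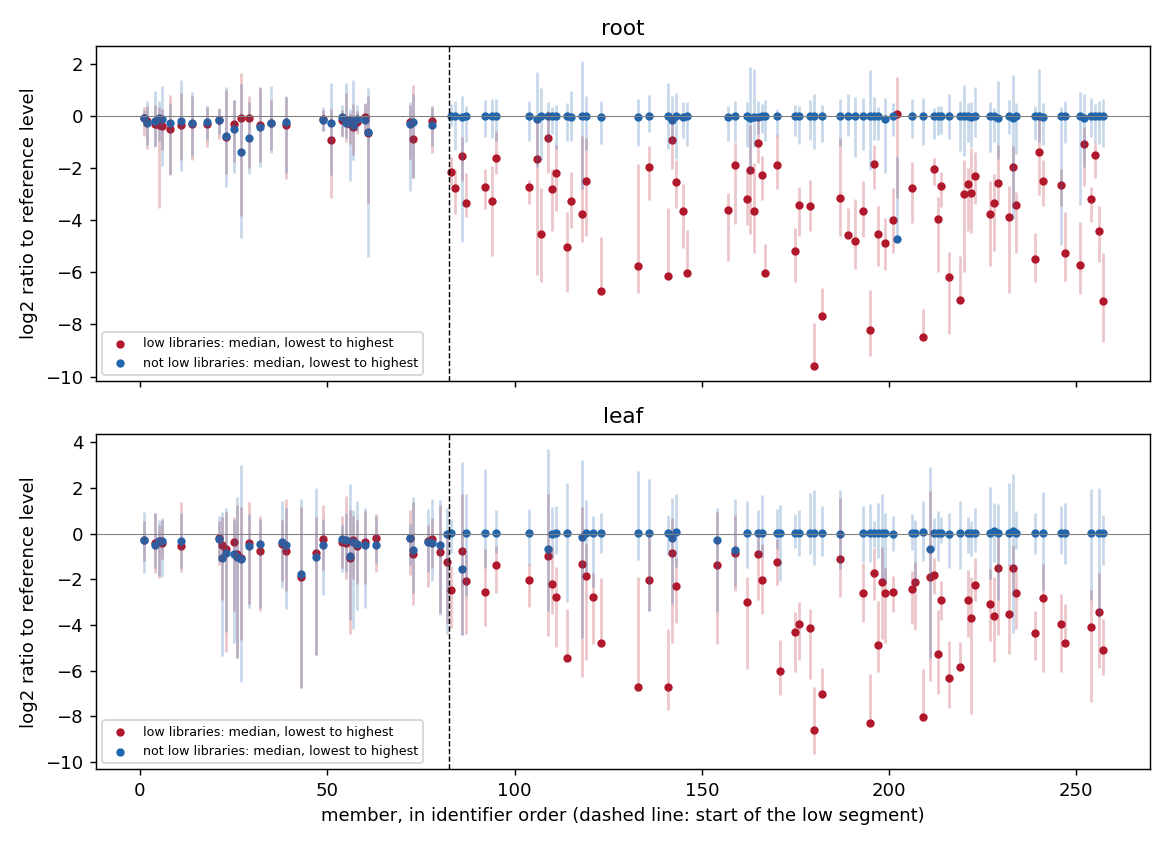
Log2 ratio of CPM to the reference level for every assessed member in identifier order (0.1 CPM added to both), in root and in leaf; points are medians and lines run from the lowest to the highest library, red for low and blue for the other libraries. Left of the dashed line, which marks TraesCS1D02G436800, both colours lie together, and right of it the red medians scatter from near 0 to below -8.

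The genes that marked the edge were followed one by one. TraesCS1D02G436300, the last gene before the segment that was assessed in both tissues, had a median of 10.04 CPM in low root libraries (4.21 to 15.03 CPM) and of 9.02 CPM in the others (5.19 to 14.5 CPM), so that the groups overlapped. TraesCS1D02G436800, the first segment gene, had a median of 3.14 CPM in low root libraries (2.17 to 4.68 CPM) and of 14.2 CPM in the others (10.95 to 19.8 CPM). In leaf TraesCS1D02G436800 had a median of 2.80 CPM in low libraries (0.790 to 5.90 CPM) and of 15.9 CPM in the others (8.76 to 24.8 CPM). The groups did not overlap for this gene in either tissue, so that every one of the 38 low root and 42 low leaf libraries was already low at it.

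Between these 2 genes no gene gave a clear reading in both tissues. No read was counted for TraesCS1D02G436400. TraesCS1D02G436500, with leaf medians of 6.57 CPM in low and 8.28 CPM in other libraries, overlapped widely and had 3 reads in all root libraries. TraesCS1D02G436600 had 102 reads in low and 368 reads in other root libraries, a pooled level of 33.6%. TraesCS1D02G436700 had a leaf median of 1.90 CPM in low libraries (0.206 to 4.68 CPM) and of 4.60 CPM in the others (0.123 to 10.3 CPM), and in root 19 and 76 reads, a pooled level of 30.3%. In leaf it was the 1 assessed gene before the segment that was reduced in most low libraries. Whether the low level begins at TraesCS1D02G436600, TraesCS1D02G436700 or TraesCS1D02G436800 is not settled by these counts.

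The start of the segment in each library was placed by fitting 1 step to the log2 ratios of all assessed 1D genes in identifier order. A step of at least 1 on the log2 scale was found in each of the 38 low root and 42 low leaf libraries and in none of the 43 and 40 others. The low state was defined on the same ratios of the members, so this split largely follows from that definition. Only the place of the step is read from the fit. In root the fitted start was TraesCS1D02G436800 in 35 libraries, TraesCS1D02G436900 in 2 and TraesCS1D02G435800 in 1, replicate 2 of Gabo. TraesCS1D02G435800 had a median of 13.05 CPM in low root libraries (4.52 to 54.5 CPM) and of 20.3 CPM in the others (4.53 to 43.2 CPM), and so varied widely in both. The median log2 ratio went from -0.26 left to -3.22 right of the start in low root libraries.

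In leaf the fitted start was less sharp. It was TraesCS1D02G436800 in 12 low libraries, TraesCS1D02G439600 in 10, TraesCS1D02G437200 in 9 and TraesCS1D02G436700 in 5. It was TraesCS1D02G436500, TraesCS1D02G438000, TraesCS1D02G439000, TraesCS1D02G439500, TraesCS1D02G439800 and TraesCS1D02G440100 in 1 library each. In leaf 7 genes were assessed from TraesCS1D02G436800 up to the gene before TraesCS1D02G439600, and among these TraesCS1D02G437100 and TraesCS1D02G439500 were often on in low libraries. Whatever the fitted start, TraesCS1D02G436800 was under every other leaf library in all 42. TraesCS1D02G437100 had a leaf median of 1.17 CPM in low libraries (0 to 7.22 CPM) and of 0.639 CPM in the others (0 to 18.8 CPM). In root TraesCS1D02G437100 was at 6.20 CPM in low libraries (3.16 to 10.3 CPM) and at 17.6 CPM in the others (0.539 to 31.2 CPM). TraesCS1D02G439500 was at 1.03 CPM in low and 1.32 CPM in other leaf libraries, and at 2.39 CPM and 4.32 CPM in root.

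At the other edge the segment ran to the last genes with reads. TraesCS1D02G454700 had a median of 0.198 CPM in low root libraries (0 to 0.959 CPM) and of 40.7 CPM in the others (17.9 to 63.8 CPM). In leaf TraesCS1D02G454700 was at 0.110 CPM (0 to 0.447 CPM) and at 7.24 CPM (2.66 to 12.8 CPM). TraesCS1D02G454600, next to it, was at 0.804 CPM and 19.2 CPM in root and at 0.437 CPM and 5.80 CPM in leaf, with overlap in leaf only. No gene after the range was assessed in either tissue. Just before the range, TraesCS1D02G428100 was at 41.0 CPM in low and 43.8 CPM in other root libraries, and TraesCS1D02G428400, the first member, at 24.4 and 24.8 CPM, with overlap for both.

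Off genes of high level elsewhere show the off state most clearly. TraesCS1D02G447000 had between 0 and 2 reads in each of the 38 low root libraries, 10 reads in all, and between 319 and 1268 reads (median 772) in each of the 43 others. In leaf TraesCS1D02G447000 had between 0 and 6 reads in low libraries and between 300 and 2479 reads (median 757.5) in the others, or 82.7 CPM at the median. TraesCS1D02G449900 had 3 reads in all 38 low root libraries together, and between 162 and 582 reads (median 363) in each other library. In leaf it had 22 reads over 42 low libraries and between 111 and 704 reads in each of the others. TraesCS1D02G447200 had 3 reads in all low root libraries and 8 in all low leaf libraries, against medians of 208 and 121.5 reads per library in the others. For all 3 genes the groups were far apart in both tissues.

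TraesCS1D02G448600 had at most 5 reads in a low root library and between 139 and 1887 reads in the others (median 629), and in leaf at most 3 reads against 129 to 640 reads. TraesCS1D02G450900 had 6 reads over all low root libraries and 7 over all low leaf libraries, against medians of 129 and 51.5 reads in each other library. TraesCS1D02G441100, TraesCS1D02G442900, TraesCS1D02G443400, TraesCS1D02G445400 and TraesCS1D02G447900 also had a median count of 0 in low root libraries, with medians between 23 and 105 reads in the others. In all, 9 of 77 root and 8 of 64 leaf genes had this median of 0. None of the assessed segment genes was without a single read in all low libraries.

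Among genes of lower level, TraesCS1D02G446300 had no read in any low library of either tissue, with 508 reads over the other root libraries and 142 over the other leaf libraries. Its pooled CPM was at least 140-fold higher in the other root libraries and at least 49.0-fold higher in the other leaf libraries, against a floor of 3 counts over the group of low libraries. TraesCS1D02G441900 had 1 read in all low root libraries and 444 in the others, and TraesCS1D02G441700 had 3 reads in all low leaf libraries and 987 in the others. Of the segment genes that were not assessed but had at least 100 reads in a tissue, 19 of 27 in root and 24 of 28 in leaf had a pooled level in low libraries under 50% of that in the others. Before the segment this was so for 1 of 18 genes in root and 2 of 14 in leaf. The share over all genes of such levels was not computed, and these counts rest on the contrast that formed the groups. They are given as a description only.

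Other members with a high median level kept a small but steady residue. TraesCS1D02G450600 had between 0.201 and 2.56 CPM in low root libraries (median 1.24) and between 53.1 and 173.6 CPM in the others (median 97.6). In leaf TraesCS1D02G450600 was at 0.675 CPM (0.211 to 2.30 CPM) and at 62.1 CPM (21.5 to 117.0 CPM). TraesCS1D02G446400 was at 1.89 CPM (0.767 to 3.62 CPM) in low and 71.9 CPM (42.1 to 96.1 CPM) in other root libraries, and at 2.12 and 44.8 CPM in leaf. Both genes had reads in every low library and did not overlap between the groups.

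The reduced genes differed in how constant their state was over the low libraries. TraesCS1D02G439000 was at 18.4 CPM in low root libraries (11.5 to 22.04 CPM) and at 121.4 CPM in the others (62.6 to 182.7 CPM), reduced in 37 of 38 and off in 1. In leaf TraesCS1D02G439000 was at 7.59 CPM (3.29 to 12.2 CPM) and at 32.2 CPM (11.9 to 65.9 CPM), reduced in all 42 low libraries, with overlap at the edges. TraesCS1D02G436900 was at 7.41 CPM in low root libraries (3.65 to 12.3 CPM) and at 50.6 CPM in the others (20.4 to 76.5 CPM), reduced in 31 and off in 7 low libraries. TraesCS1D02G454400 lay at the border of off and reduced in root, with 12.7 CPM (6.94 to 17.5 CPM) against 117.0 CPM (67.05 to 187.4 CPM), and was reduced in 24 and off in 14 low libraries.

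TraesCS1D02G454400 was lower in leaf, with 0.866 CPM in low libraries (0 to 2.89 CPM) and 16.9 CPM in the others (2.11 to 64.4 CPM), and off in 35 of 42. TraesCS1D02G451900 was at 14.5 CPM in low root libraries (8.06 to 39.8 CPM) and at 81.3 CPM in the others (27.1 to 213.8 CPM). In leaf TraesCS1D02G451900 was at 29.6 CPM (3.69 to 75.4 CPM) and at 84.3 CPM (11.03 to 203.2 CPM), on in 12 low libraries, reduced in 27 and off in 3. Its groups overlapped in both tissues. TraesCS1D02G440900, which was assessed in leaf only, was at 5.64 CPM in low libraries (1.27 to 11.8 CPM) and at 40.5 CPM in the others (7.77 to 66.9 CPM).

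The segment genes most often on in low root libraries were TraesCS1D02G449300 (29 of 38), TraesCS1D02G439500 (24), TraesCS1D02G443000 (20), TraesCS1D02G445200 (16) and TraesCS1D02G454200 (15). In leaf they were TraesCS1D02G437100 (25 of 42), TraesCS1D02G445200 (24), TraesCS1D02G444600 (23), TraesCS1D02G443000 (22) and TraesCS1D02G439500 (19). For TraesCS1D02G449300 the root reference level lay within the low libraries, which held nearly all of its reads. Its on state there was therefore fixed by the reference, and its place in this ranking carries no weight. TraesCS1D02G445200 stayed near the border of on and reduced in both tissues, with 10.6 CPM in low and 21.5 CPM in other root libraries and 2.59 and 5.06 CPM in leaf. TraesCS1D02G443000 was at 1.31 and 2.31 CPM in root and at 1.42 and 2.32 CPM in leaf. Of these genes only TraesCS1D02G449300 in root and TraesCS1D02G437100 in leaf had a higher median in low than in other libraries.

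TraesCS1D02G449300 was the reverse of its neighbours in root. It had between 2 and 72 reads in each of the 38 low libraries (median 25) and between 0 and 9 reads in the 43 others (median 0), of which 18 had any read. Pooled over libraries, 944 reads were counted in the low and 61 in the other libraries. The highest of the others was replicate 1 of Maxipak-65 with 9 reads, and replicate 1 of Parwaz-94 had 5 reads, both of them intermediate libraries. The low libraries with the fewest reads of this gene overlapped with these. In leaf it was near 0, with 24 reads over the low and 2 over the other libraries.

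A few other segment genes had more reads in low libraries in 1 tissue, all at low levels. TraesCS1D02G450100 had 118 reads in low root libraries (in 33 of 38) and 5 in the others (in 4 of 43), but in leaf it was at 2.31 CPM in low (0 to 32.7 CPM) and 5.50 CPM in other libraries (0.102 to 66.4 CPM). TraesCS1D02G453000 had 393 reads in low leaf libraries (in 39 of 42) and 39 in the others (in 20 of 40), but in root it was at 0.920 CPM in low (0.225 to 2.38 CPM) and 2.56 CPM in other libraries (1.22 to 9.26 CPM). For both genes the direction was therefore not the same in the 2 tissues. They were picked after their values were seen, and the difference between tissues was not tested.

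Some members were off in libraries that were not low. In root this was most frequent, after TraesCS1D02G449300 (33 of 43), for TraesCS1D02G434700 (4), TraesCS1D02G431200 (3), TraesCS1D02G452300 (3) and TraesCS1D02G437100 (2). In leaf it was most frequent for TraesCS1D02G432800 (12 of 40), TraesCS1D02G433200 (10), TraesCS1D02G431200 (7), TraesCS1D02G437100 (6) and TraesCS1D02G450100 (6). The root count for TraesCS1D02G449300 follows from its reference level, which was set by the low libraries. TraesCS1D02G452300 had between 1.93 and 94.2 CPM in the other root libraries and between 2.61 and 13.9 CPM in the low ones. TraesCS1D02G431200, before the segment, was at 28.4 CPM in low root libraries (2.02 to 95.1 CPM) and at 11.6 CPM in the others (1.09 to 71.8 CPM), with wide overlap.

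Members before the segment with a high level were on in most low and most other libraries for some genes and in fewer for others. TraesCS1D02G433400 was at 77.5 CPM in low (55.6 to 97.5 CPM) and 74.7 CPM in other root libraries (55.6 to 105.5 CPM), and TraesCS1D02G434000 at 45.8 and 49.2 CPM, and both were on in all 81. TraesCS1D02G432400, the highest of all members in root, was at 147.4 CPM in low (35.0 to 310.1 CPM) and 157.4 CPM in other libraries (41.2 to 317.9 CPM), and on in 28 of 38 and 37 of 43. In leaf TraesCS1D02G428800 was at 127.5 CPM in low (41.8 to 209.3 CPM) and 127.9 CPM in other libraries (44.8 to 242.6 CPM). TraesCS1D02G430700 was at 129.6 and 89.4 CPM in leaf, on in 27 of 42 low and 19 of 40 other libraries. TraesCS1D02G431700 was at 33.1 and 41.0 CPM in leaf, on in 24 and 31. All of these overlapped between low and other libraries.

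The state of a gene in low libraries was alike in root and leaf. Of 58 segment genes assessed in both tissues, 43 had the same class, with 22 off in both, 20 reduced in both and 1 on in both, and no gene was off in 1 tissue and on in the other. Across these 58 genes, the level left in low libraries had a Spearman's rho of 0.842 and a Pearson's r of 0.676 between the tissues. This is a description across genes, which share the libraries of each tissue and are not independent replicates. TraesCS1D02G437100 lay farthest off, with 35.2% left in root and 182.8% in leaf. Its leaf value is a ratio of small medians, 1.17 CPM in low and 0.639 CPM in other libraries, whose ranges overlapped.

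**Figure D4:**
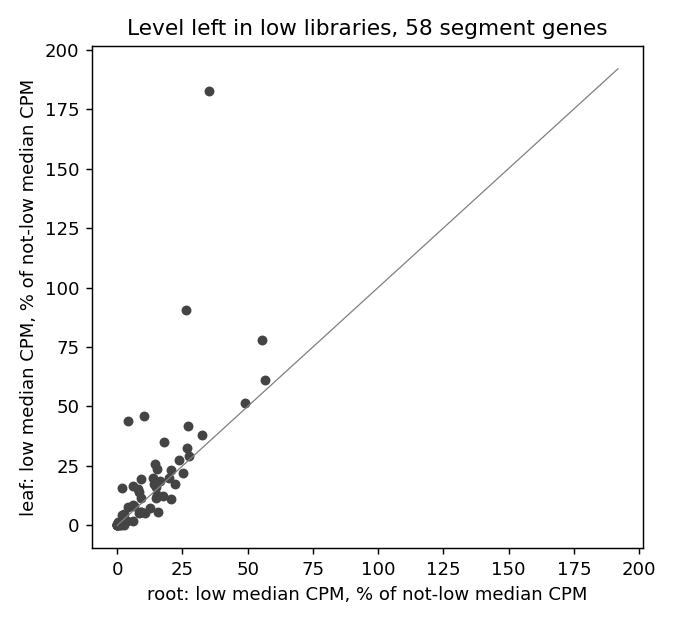
Level left in low libraries, as median CPM in low libraries in percent of that in the others, in leaf (vertical axis) against root (horizontal axis), for the 58 segment genes with a value in both tissues; the line marks equal percentages. Most points lie along the line under 50%, and the highest point is TraesCS1D02G437100 with 182.8% in leaf.

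The neighbours and the homoeologous chromosomes were read in the same way. For the 257 chromosome 1D genes just before the range, the median log2 ratio of a library had a median of -0.25 in low and -0.22 in other root libraries, and of -0.42 and -0.37 in leaf. For the last 257 genes of 1A it was -0.22 and -0.31 in root and -0.40 and -0.43 in leaf. For the last 257 genes of 1B it was -0.13 in low and -0.43 in other root libraries, and -0.26 and -0.53 in leaf. The ranges of low and other libraries overlapped for each of these lists in both tissues, for example from -0.53 to 0.01 and from -0.46 to -0.10 for 1A in root and from -1.12 to 0.14 and from -1.37 to 0.36 for 1A in leaf, where the segment had -3.22 and -0.01 in root and -2.80 and 0.01 in leaf. For 1B they ran from -0.47 to 0.04 in low and from -0.77 to -0.24 in other root libraries. In leaf the 1B ranges were -0.78 to 0.10 and -1.63 to 0.11. The higher 1B medians in low libraries were not tested. How reads that fit more than 1 homoeologous copy were counted is not given in the sources used here, and whether the reads left on reduced genes come from 1A or 1B copies was not tested.

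Leaf was compared with root on counts summed for each cultivar and tissue (28 cultivars), a contrast that did not choose the members. Of 133 members tested, 49 had a higher level in leaf and 52 in root at an adjusted p under 0.1 (edgeR's quasi-likelihood test with Benjamini-Hochberg adjustment over 62767 genes). These are 75.9% of the members, where 87.9% of all genes tested passed, 40.7% higher in leaf and 47.2% higher in root. Before the segment, 22 of 46 genes were higher in leaf and 20 in root, and in the segment 27 of 87 in leaf and 32 in root. The share that passed was 91.3% before the segment and 67.8% in it, and the difference between these shares was not tested. The median log2 fold change of leaf over root was 0.38 before the segment and -0.05 in the segment, and -0.12 over all genes. The scaling between tissues matters here, because on log2(tpm + 1) with limma the median over all genes was -0.78 and the split became 31 higher in leaf and 76 higher in root. Over all libraries, low ones made up 46.9% in root and 51.2% in leaf. The leaf share includes Hope (2 of 3 low) and TJ-83 (3 of 3 low), which were not in this test. The part of the low libraries in the values of the segment genes was not tested.

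The members highest in leaf over root were near 0 in root. TraesCS1D02G436500 was at 9.67 ± 4.50 CPM in leaf and 0.00402 ± 0.0155 CPM in root (SD, n = 28 each), with 6767 reads in leaf and 3 in root, a ratio of pooled CPM of 2543 (exact 95% interval 869.8 to 12334, counting error only). TraesCS1D02G440900 was at 22.7 ± 14.6 CPM in leaf and 0.0830 ± 0.0768 CPM in root, and its log2 fold change was 9.01 (SE 0.39, edgeR adjusted p = 2.95e-29). TraesCS1D02G430700 was at 125.9 ± 60.4 CPM in leaf and 0.785 ± 0.631 CPM in root, and its log2 fold change was 8.25 (SE 0.33, edgeR adjusted p = 3.02e-31). TraesCS1D02G441400 was at 2.46 ± 5.599 CPM in leaf and 0.0127 ± 0.0201 CPM in root, and its log2 fold change was 7.78 (SE 0.51, edgeR adjusted p = 5.27e-21). The leaf sample of Zincol-2016 alone held 848 of its 1865 leaf reads, and without this cultivar the leaf mean of TraesCS1D02G441400 was 1.42 ± 1.09 CPM (n = 27) and the log2 fold change 7.16. On log2(tpm + 1) its log2 fold change was 0.88, and it was not tested with any replicate number left out. All 4 were higher in leaf in 28 of 28 cultivars. TraesCS1D02G440900 and TraesCS1D02G441400 lie in the segment, and the other 2 genes lie before it.

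The members highest in root over leaf were near 0 in leaf. TraesCS1D02G434700 had no read in any of the 28 leaf samples and was at 2.85 ± 1.20 CPM in root (SD, n = 28), which is at least 676-fold higher in root against a floor of 3 counts over all leaf samples (edgeR adjusted p = 2.31e-19). TraesCS1D02G432000 was at 0.0492 ± 0.0672 CPM in leaf and 8.28 ± 3.20 CPM in root, and its log2 fold change was -6.43 (SE 0.30, edgeR adjusted p = 1.17e-27). TraesCS1D02G443300, in the segment, was at 0.0380 ± 0.0558 CPM in leaf and 5.88 ± 4.25 CPM in root, and its log2 fold change was -6.22 (SE 0.46, edgeR adjusted p = 7.51e-19). TraesCS1D02G454200, also in the segment, was at 0.0169 ± 0.0385 CPM in leaf and 2.97 ± 1.47 CPM in root, and its log2 fold change was -6.18 (SE 0.33, edgeR adjusted p = 5.35e-25). All 4 were higher in root in 28 of 28 cultivars. In root TraesCS1D02G443300 was also at 0.732 CPM in low libraries and 10.2 CPM in the others.

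**Figure D5:**
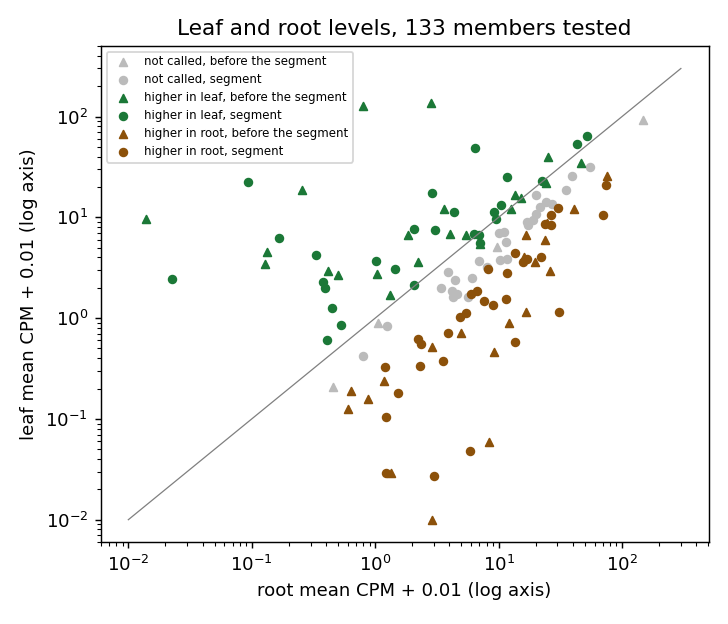
Mean CPM over 28 cultivars in leaf (vertical log axis) and root (horizontal log axis), with 0.01 CPM added, for the 133 members tested; triangles lie before and circles in the segment, green and brown mark genes higher in leaf (49) and root (52) at an edgeR adjusted p under 0.1, and grey the others. The line marks equal CPM, and the grey points lie mostly below it since the test compares levels after TMM scaling and not CPM as drawn. The genes at the left edge, such as TraesCS1D02G436500, are leaf genes near 0 in root, and those at the bottom are root genes near 0 in leaf.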

How the data were processed

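The authors mapped 50-bp single-end reads of leaf and root libraries to the wheat genome with HISAT2 and deposited, for each sample, a table of counts on genes made with featureCounts and, for each library, tpm values. The counts are whole numbers without normalization, and how reads with several matches, and the strand, were treated is not given in the sources used here. The deposited tpm values equalled tpm computed from the counts and the gene length column within 0.01 in 161 of 163 libraries, and 2 tables, both of Zincol-2016, were cut short. Genes of noncoding RNA are 12853 of the rows.

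CPM is counts over the total of all genes. The low state, the states of genes and the step (least absolute deviations, log2 ratios limited to -4 and 2, at least 5 genes on each side) were computed with Python 3.11.15, numpy 2.4.6 and pandas 2.3.3. By design the reference level was the median of the tissue. The upper quartile was used in its place for the description because the median lies at the low level in leaf. Best matches between libraries used 234 genes outside chromosome 1D, under 0.15 CPM or above 2 CPM in all but 5% of libraries. A limit of 5% of libraries was also set for the rarer of the 2 states.

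Leaf and root counts were summed over the replicates of a cultivar, and tested with edgeR 4.0.16 in R 4.3.3 (TMM, filterByExpr, quasi-likelihood F-test, tissue as the only term) on the whole table. Summing takes names as given. The labels do not say whether replicates are separate plants, so p-values measure the spread between these samples. Alternatives were DESeq2 1.42.0, limma 3.58.1 with 1 or 0.1 added to the tpm before taking log2, all genes with a count, a minimum of 10 counts in each sample, a cultivar block, each replicate number left out, Chakwal-97 left out (chosen after seeing the data, since its only leaf library had 0.134% of its counts on chromosome 3B, where the other leaf libraries had 4.27% to 5.57%), Zincol-2016 left out (also chosen after seeing the data) and an adjusted p under 0.05. The fit was tested on simulated data. For the number of low libraries, a reference of at least 5 CPM, TMM library sizes, the mean and a score under -0.5 were tried, each with the tissue median as the reference. For the start, least squares and a reference of at least 5 CPM were tried. The limits of the on, reduced and off states were not varied.

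The members and lists were chosen with earlier results of these data known. Genes were named by rule: those at the edges of the range, those that mark a start, the 8 and 5 members with the highest median CPM in root and leaf, the 4 with the largest change in each direction between tissues, the 5 most often on in low libraries (given for the segment) and the 5 most often off in the others. Other genes, among them the off genes with a median of 0 in low libraries, were named after their values were seen. Of the marker lists, the leaf genes to be matched by their description were not used, since no description was at hand.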

Additional observations from a re-analysis of the deposited data

How the results depend on the processing

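In root, 38 libraries were low with the upper quartile, a reference of at least 5 CPM, TMM library sizes, the mean and a score under -0.5 as well, and the median number of members from the fitted start was 175 with least squares, a reference of at least 5 CPM and the upper quartile as well. In leaf the count depends on the reference. With the tissue median 2 libraries were low and with the upper quartile 42, because the leaf median itself lies at the low level. With the tissue median kept, the count was 0 with TMM library sizes, 5 with the mean and 23 with a score under -0.5. These other settings were not tried with the upper quartile, on which the states given above rest. The median number of members from the fitted leaf start was 180 with the tissue median (2 libraries), 211 with least squares, 207.5 with a reference of at least 5 CPM and 171 with the upper quartile, which was chosen for the start after seeing the data. For leaf vs root, 101 members passed. The count was 158 without a filter on low counts and 33 with at least 10 counts in every sample, where 218 and 43 members were tested. It was between 89 and 97 with each replicate number left out, 95 with the cultivar block, 105 with DESeq2, 107 and 105 with limma on log2(tpm + 1) and log2(tpm + 0.1), 104 without Chakwal-97, 103 without Zincol-2016 and 97 at an adjusted p under 0.05. The 8 genes named for this test kept their direction and stayed past the threshold under each alternative in which they were tested. On the tpm scale the median log2 fold change over all genes was -0.78 and -1.15, against -0.12, and 23 of 133 members changed sign. Genes under 2 CPM at the reference were not given a state, and a count of 0 allows up to 0.370 CPM in a library.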
